A study of Homo sapiens with 12 samples.

Results

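A set of 30 genes of sterol and fatty acid synthesis was followed through early neural differentiation of H9, a widely used line of human embryonic stem cells. The members were taken by gene symbol, 30 of the 58219 genes listed, and fell into 18 enzymes of the cholesterol pathway, 5 genes that regulate the pathway or carry sterol, and 7 genes of fatty acid synthesis. Poly(A) RNA had been sequenced from 12 libraries, 2 for each genotype label at each of days 0, 4 and 8. The SOX21-/- libraries were named S13 and S23 and the wild-type libraries WT1 and WT2, and all came from H9 cells. The cells were called embryonic stem cells at day 0, and the labels give no differentiation medium or agent. Nothing in the labels says whether S13 and S23 were separate clones, or WT1 and WT2 separate cultures, so a p-value here reflects the spread among these libraries alone, which may be technical. The question put by the study's design was what the loss of SOX21, a transcription factor of neural progenitors, does to gene expression in this differentiation.

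Cells make cholesterol from acetyl units through mevalonate, isoprenoid diphosphates and squalene, and the last part of the pathway turns lanosterol into cholesterol. Fatty acids start from the same acetyl units, which are joined by fatty acid synthase and then lengthened or desaturated. Both branches are controlled by the SREBP transcription factors, which are held in the endoplasmic reticulum when sterol is plentiful and released to the nucleus when it is scarce. Cholesterol is also needed in the embryonic nervous system for the maturation of Hedgehog proteins, and enzyme defects of the last steps cause human malformation syndromes.

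No library labelled SOX21-/- lacked SOX21 transcripts, and SOX21 was not called lower at any day. SOX21 had 1.62 and 1.84 TPM (a length-adjusted share of the transcripts in a library) in libraries S13 and S23 at day 0, against 1.26 and 1.39 TPM in libraries WT1 and WT2. At day 4 SOX21 had 162 and 143 TPM in libraries S13 and S23, against 156.5 and 166 TPM in wild type. At day 8 SOX21 had 253 and 69.9 TPM in libraries S13 and S23, against 129 and 100 TPM in wild type, and its log2 fold changes at days 0, 4 and 8 were 0.23, -0.09 and 0.23 (adjusted p = 1, 1 and 0.898, limma). A gene total of this kind does not show whether a deletion or frameshift is present, so the genotype below is that of the label. Markers moved with day in both genotypes: the summed level of 8 neural progenitor markers was 104 to 113 TPM at day 0 and 1562 to 1675 TPM at day 8 in SOX21-/- libraries, against 101 to 109 and 1492 to 1599 TPM in wild type. The sum of 5 mesoderm markers stayed at or under 2.05 TPM and that of 5 endoderm markers at or under 1.10 TPM in every library. In this bulk RNA, fewer cells of a type and less RNA per cell cannot be told apart.

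Differences in library composition and 1 library that stood apart in the 30 genes bear on the reading of the results below. The share of TPM in protein-coding genes, without the mitochondrially encoded ones, was 55.9 to 56.4% at day 0 but 83.5 to 87.1% later. A step away from day 0 thus depended on the scaling. Fewer genes reached 1 TPM at day 4 under the SOX21-/- label (S13 17586, S23 17949) than in wild type (WT1 18870, WT2 18884). The libraries of both genotypes spanned 15347 to 15490 such genes at day 0 and 19746 to 19834 at day 8. The part of this day 4 gap in the results for the 30 genes was not tested. At day 4 the library S13 was lower than S23 in 27 of the 30 genes, by a median of 0.58 on the log2(TPM + 1) scale, while the median over all 24248 genes tested was 0. The difference was over 0.5 in 17 of the 30, against 14.0% of all genes. It was over 0.5 in 11 of the 18 sterol enzymes, 4 of the 5 regulators and 2 of the 7 fatty acid genes. No gene was lower by over 0.5 in the first library between WT1 and WT2 at day 4 (0 of 30 genes over 0.5, background 10.9%) or between S13 and S23 at day 8 (0 of 30, 11.5%). At day 0 S13 was lower than S23 by over 0.5 in 1 of 30 genes (7.54%), INSIG2, and higher by over 0.5 in INSIG1 (0.61) and LSS (0.51), and WT1 was lower than WT2 by over 0.5 in 1 of 30 (8.83%), again INSIG2. Of the other lists examined, the neural progenitor markers had a median S13 minus S23 difference of -0.46 at day 4, with 7 of 8 lower in S13. Which library lay farther from wild type varied among these markers. For OTX2 it was S23 (508.5 TPM, against 255 in S13 and 214 and 218 in WT1 and WT2). For SOX2 it was S13 (290 TPM, against 403 in S23 and 432 and 425.5 in WT1 and WT2). Genes of SREBP processing, isoprenoid branches and sterol efflux had median differences of -0.08, 0.06 and 0.23. Medians by gene group at day 4 and in the SOX21-/- steps are given below with and without S13 at day 4. Counts of calls are given with S13, and their ranges over the fits without 1 library come last. Counts of negative log2 fold changes, unadjusted p-values and groups that did not overlap, and values under other scalings, are given only with S13.

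**Figure D1:**
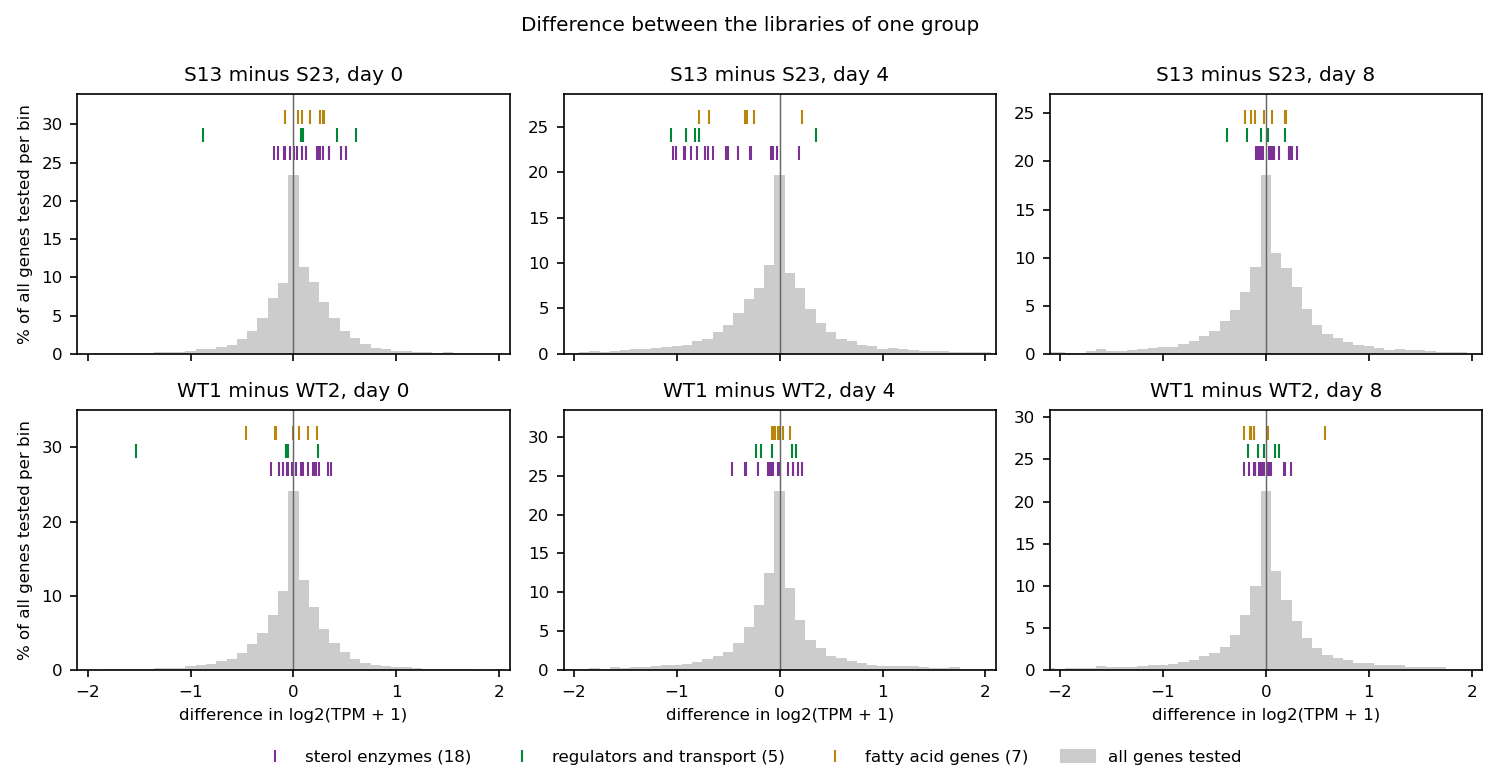
Differences between the libraries of one group (S13 minus S23 above, WT1 minus WT2 below) at each day, in log2(TPM + 1), as grey bars for the percentage of all 24248 genes in each bin and ticks for the 30 genes by role. At day 4 the ticks of S13 minus S23 reach from -1.06 to 0.35, with 27 of 30 below 0, while those of WT1 minus WT2 lie between -0.46 and 0.22.

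Promoters were printed for the enzyme that was called between genotypes (MVD) and for HMGCS1, INSIG1 and SCD, textbook SREBP targets of the sterol, regulatory and fatty acid groups; SREBF2 was added after values were seen because it held the longer motif. Each run is the 250 bases before a RefSeq transcript start on GRCh38.p14, 5′ to 3′ on the gene's strand, with matches to TCACNCCAC or CACNCCAC (sterol regulatory element cores), CACGTG (the E-box) and CCAAT (the NF-Y box) in capitals, read on both strands, so that ATTGG is CCAAT on the other strand. The windows are chr16:88663092-88663341 (minus strand), chr5:43313413-43313662 (minus), chr7:155297628-155297877 (plus), chr10:100346983-100347232 (plus) and chr22:41832855-41833104 (plus), and other annotated transcripts of these genes start inside them.
MVD: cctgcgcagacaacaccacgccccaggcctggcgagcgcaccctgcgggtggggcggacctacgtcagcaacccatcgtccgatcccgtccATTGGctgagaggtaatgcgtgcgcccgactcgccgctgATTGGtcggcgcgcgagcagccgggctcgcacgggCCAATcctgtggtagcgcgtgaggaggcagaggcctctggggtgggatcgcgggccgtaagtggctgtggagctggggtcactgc
HMGCS1: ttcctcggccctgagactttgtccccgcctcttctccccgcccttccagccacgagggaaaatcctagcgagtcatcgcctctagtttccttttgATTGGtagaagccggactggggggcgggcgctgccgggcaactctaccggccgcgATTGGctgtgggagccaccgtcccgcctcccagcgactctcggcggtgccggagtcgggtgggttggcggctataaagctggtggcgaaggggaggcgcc
INSIG1: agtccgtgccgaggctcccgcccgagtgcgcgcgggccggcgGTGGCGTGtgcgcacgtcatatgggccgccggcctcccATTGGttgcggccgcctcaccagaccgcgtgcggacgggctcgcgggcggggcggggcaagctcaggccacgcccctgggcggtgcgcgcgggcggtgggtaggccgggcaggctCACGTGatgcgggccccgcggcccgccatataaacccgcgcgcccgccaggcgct
SCD: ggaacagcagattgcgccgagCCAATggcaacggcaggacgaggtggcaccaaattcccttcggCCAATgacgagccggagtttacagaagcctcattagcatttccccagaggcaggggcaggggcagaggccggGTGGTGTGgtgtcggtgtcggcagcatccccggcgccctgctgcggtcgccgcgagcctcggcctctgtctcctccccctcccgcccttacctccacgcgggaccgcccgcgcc
SREBF2: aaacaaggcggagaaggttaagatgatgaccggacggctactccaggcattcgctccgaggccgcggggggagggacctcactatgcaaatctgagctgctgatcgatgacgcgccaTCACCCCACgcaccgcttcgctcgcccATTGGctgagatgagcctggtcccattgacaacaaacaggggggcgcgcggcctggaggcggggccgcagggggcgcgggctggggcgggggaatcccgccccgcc

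MVD held 3 CCAAT boxes and no sterol regulatory core of either form in this window, HMGCS1 held 2 CCAAT boxes, and SREBF2 held TCACCCCAC upstream of a CCAAT box. Promoter windows were found for 26 of the 30 genes. CCAAT was present for 19 of the 26 (13 of 15 sterol enzymes, 3 of 5 regulators and 3 of 6 fatty acid genes), against 32% of all 35116 promoter windows. TCACNCCAC was present for 1 of the 26 genes, SREBF2, against 0.883% of all windows, and the shorter CACNCCAC, which lies inside it and was added after values were seen, for 6 (ACACA, IDI1, INSIG1, SC5D, SCD and SREBF2), against 4.87%. CACGTG was present for 2, INSIG1 and SC5D, against 6.34%, and GGGCGG (the GC box, not capitalised) for 25, against 42.6%. Some genes have several windows (36 windows for the 26 genes), and a gene was counted if any of them held the motif. The background counted each window singly, so the shares of genes and of windows are not like for like. A match describes these letters only.

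**Figure D2:**
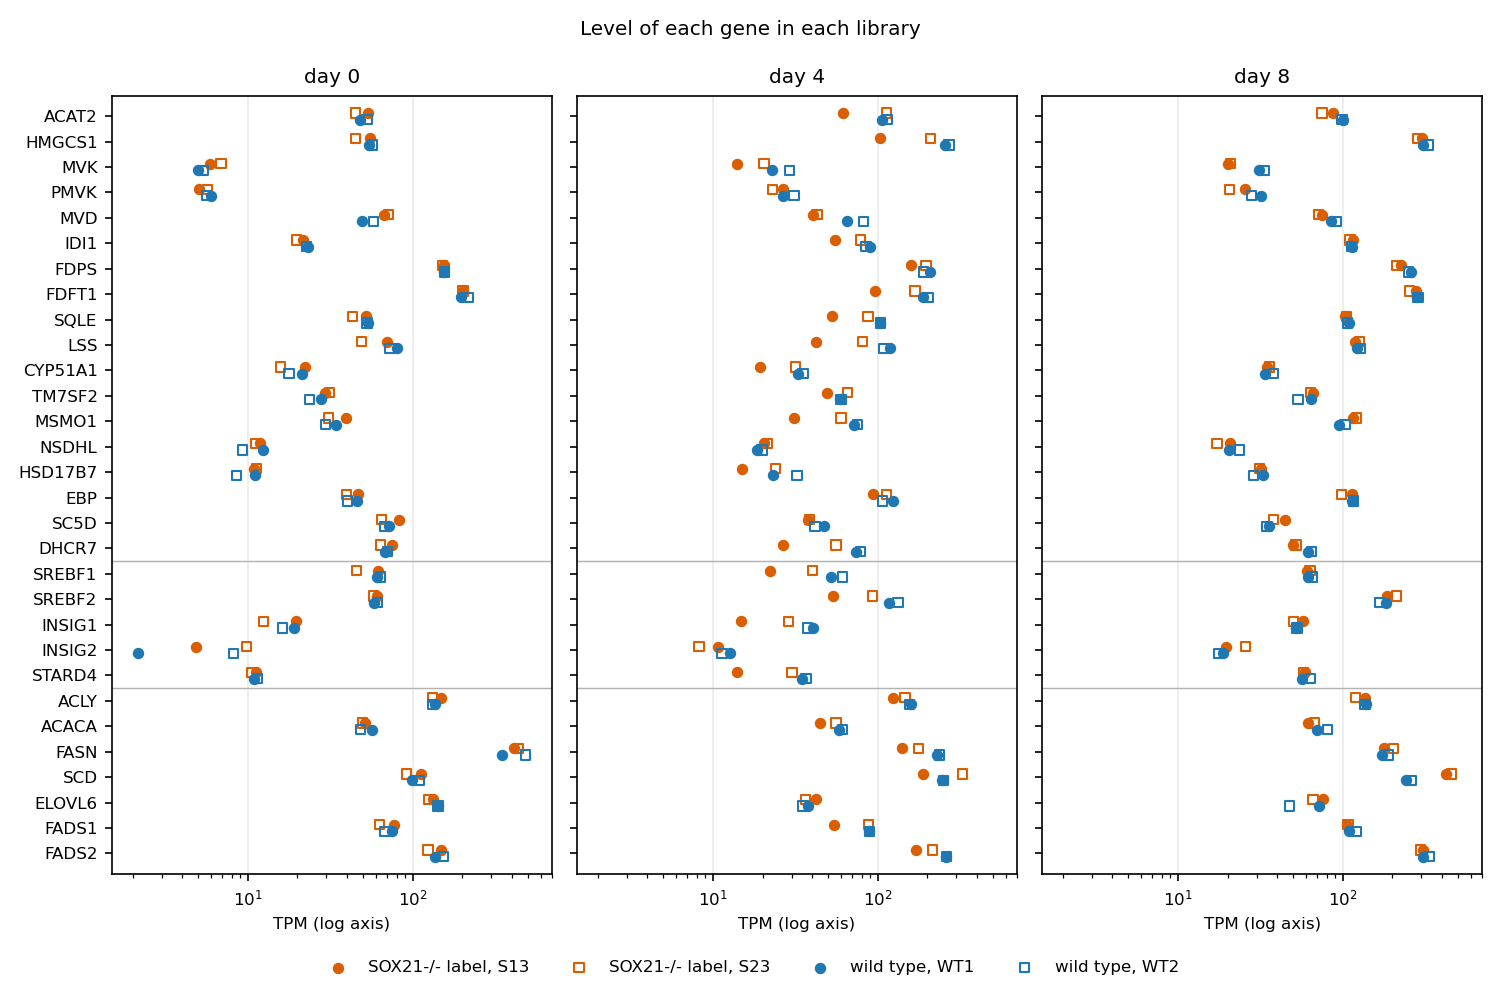
Level of each of the 30 genes in each library at days 0, 4 and 8, in TPM on a log axis, with SOX21-/- libraries in orange and wild-type libraries in blue. The horizontal lines divide sterol enzymes, regulators and fatty acid genes; at day 4 the filled orange points (S13) lie to the left for most sterol enzymes, such as DHCR7 at 26.6 TPM against 55.8 TPM in S23.

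At day 0 none of the 30 genes was called between genotypes at an adjusted p under 0.05 (background 0.384% of all genes; 1 of 30 had an unadjusted p under 0.05, MVD, against 5.88% of all genes). In both genotypes FASN, the multifunctional synthase that builds palmitate, was the most abundant of the set, with 415 and 439 TPM in libraries S13 and S23, against 351 and 484 TPM in libraries WT1 and WT2. FDFT1, which commits farnesyl diphosphate to squalene, had 203 and 203 TPM in SOX21-/- libraries, against 197 and 217 TPM in wild type. The mevalonate kinases were low: MVK had 5.93 and 6.88 TPM in SOX21-/- libraries, against 4.95 and 5.37 TPM in wild type. INSIG2, a sterol-sensing anchor of SREBP, was the least even gene of the set, with 4.87 and 9.78 TPM in libraries S13 and S23, against 2.16 and 8.15 TPM in libraries WT1 and WT2. Both SOX21-/- libraries lay below both wild-type ones in 4 of 30 genes (14.0% of all genes) and above in 3 (15.7%), and with median-of-ratios scaling, added to these counts at each day after seeing the data, below in 9 (16.9%) and above in 3 (13.7%).

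At day 4 most of the set was lower in the SOX21-/- libraries than in wild type, and a single gene, MVD, passed the test. MVD, the decarboxylase that ends the mevalonate segment by making isopentenyl diphosphate, had 40.3 and 42.7 TPM in libraries S13 and S23, against 64.8 and 81.9 TPM in libraries WT1 and WT2. Both SOX21-/- values lay below both wild-type values, and S13 and S23 were close. The log2 fold change was -0.80 (SE 0.12, n = 2 each, limma with Benjamini-Hochberg adjustment over all genes, adjusted p = 0.0376). The background of calls at day 4 was 0.775% of all genes, and 0.536% for lower calls. The call did not hold when any of the 12 libraries was left out (adjusted p 0.0534 to 0.147), nor with median-of-ratios scaling (log2 fold change -0.63, adjusted p = 0.0911). No annotated exon of MVD overlaps another gene.

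The other members at day 4 gave values below the threshold of the test. The log2 fold change was negative for 27 of 30 genes, with a median of -0.45 against -0.12 over all genes, and 15 of 30 had an unadjusted p under 0.05, against 16.9% of all genes. Both SOX21-/- libraries lay below both wild-type ones in 22 of 30 genes (33.8% of all genes) and above in 1 (11.1%), NSDHL. With median-of-ratios scaling, which brings the median of all genes to 0, they lay below in 14 of 30 (21.9% of all genes) and above in 2 (21%). The median log2 fold change was -0.48 for sterol enzymes, -0.81 for regulators and -0.25 for fatty acid genes, and with that scaling -0.32, -0.64 and -0.09.

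Sterol enzymes at day 4 showed the pattern of S13 clearly. HMGCS1, which condenses acetyl units at the entry to the mevalonate pathway, had 104 and 209 TPM in libraries S13 and S23, against 257 and 271 TPM in libraries WT1 and WT2. DHCR7, which makes cholesterol in the last step, had 26.6 and 55.8 TPM in libraries S13 and S23, against 73.9 and 79.0 TPM in wild type. LSS, which folds squalene epoxide into lanosterol, had 42.0 and 81.0 TPM in libraries S13 and S23, against 120 and 109 TPM in wild type. In all 3 genes S13 was the lowest library and S23 lay between S13 and wild type, and none passed the test (log2 fold changes -0.84, -0.97 and -0.96, adjusted p = 0.171, 0.14 and 0.143). PMVK, the second mevalonate kinase, had 26.5 and 23.1 TPM in libraries S13 and S23, against 26.7 and 31.0 TPM in wild type, and was not lower in S13 than in S23.

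The remaining sterol enzymes fell into genes whose groups were separate at day 4 and genes whose groups overlapped. SQLE, the squalene epoxidase, had 52.5 and 87.2 TPM in libraries S13 and S23, against 104 and 104 TPM in wild type. FDFT1 had 96.1 and 169 TPM in SOX21-/- libraries, against 190 and 203 TPM in wild type. MSMO1, which oxidises methyl groups of the lanosterol ring, had 31.2 and 60.0 TPM in SOX21-/- libraries, against 71.8 and 75.2 TPM in wild type. CYP51A1, the lanosterol demethylase, IDI1 and SC5D, a desaturase of the last steps, likewise had both SOX21-/- libraries below both wild-type libraries. ACAT2, which joins acetyl units, had 61.6 and 113 TPM in libraries S13 and S23, against 105.5 and 114 TPM in wild type, so that S23 lay within the wild-type range. FDPS, the sterol reductases and isomerases TM7SF2, HSD17B7 and EBP also overlapped. NSDHL, which removes carboxyl groups from the ring, had 20.5 and 21.4 TPM in SOX21-/- libraries, against 18.4 and 19.8 TPM in wild type, and was the gene with both SOX21-/- libraries above.

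Among the 4 libraries of day 4, S13 was the lowest for 4 of the 5 regulators. SREBF2, which encodes the SREBP that acts mainly on sterol genes, had 53.9 and 93.2 TPM in libraries S13 and S23 at day 4, against 117 and 133 TPM in wild type, and its log2 fold change was -0.81 (SE 0.21, adjusted p = 0.122). SREBF1, which encodes the SREBP that acts mainly on fatty acid genes, had 22.4 and 40.2 TPM in SOX21-/- libraries, against 52.2 and 61.3 TPM in wild type. S13 had the lowest level of both SREBP genes, and S23 lay between S13 and wild type. INSIG1, the sterol-sensing anchor that is itself an SREBP target, had 14.8 and 28.7 TPM in SOX21-/- libraries, against 40.8 and 37.4 TPM in wild type. STARD4, a carrier of sterol between membranes, had 14.0 and 30.2 TPM in SOX21-/- libraries, against 34.8 and 36.7 TPM in wild type. The SOX21-/- values of these 4 genes lay below both wild-type values, and none of the 4 passed the test. INSIG2 had 10.8 and 8.22 TPM in libraries S13 and S23, against 12.8 and 11.3 TPM in wild type, and did not pass the test. Its SOX21-/- values also lay below both wild-type values, but S23 was lower than S13.

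The fatty acid genes were less uniform at day 4. FASN had 140 and 176 TPM in libraries S13 and S23, against 228 and 238 TPM in wild type (log2 fold change -0.57, SE 0.16, adjusted p = 0.142). SCD, the desaturase that makes oleate, had 189 and 326 TPM in libraries S13 and S23, against 244 and 252 TPM in wild type, so that the wild-type values lay between those of S13 and S23, unlike FASN, whose groups did not overlap. ELOVL6, which lengthens palmitate, had 42.3 and 36.3 TPM in libraries S13 and S23, against 37.9 and 35.2 TPM in wild type. ACLY, which makes cytosolic acetyl-CoA from citrate, ACACA, which makes malonyl-CoA, and the polyunsaturated fatty acid desaturases FADS1 and FADS2 had both SOX21-/- libraries below both wild-type libraries; FADS2 had 172 and 214 TPM in libraries S13 and S23, against 261.5 and 263 TPM in wild type. Summed over the 7 fatty acid genes, S13 and S23 had 765 and 1044 TPM, against 1078 and 1095 TPM in libraries WT1 and WT2.

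The day 4 result depended on which SOX21-/- library was kept. Summed over the 18 sterol enzymes, S13 and S23 had 945 and 1430 TPM, against 1639 and 1668 TPM in libraries WT1 and WT2. Summed over the 5 regulators they had 116 and 200 TPM, against 258 and 280 TPM. Without S13 at day 4, the medians were -0.21, -0.43 and -0.09 for sterol enzymes, regulators and fatty acid genes, against -0.10 over all genes. Without S23 at day 4, the medians of these groups were -0.83, -1.30 and -0.42. In these fits the lone day 4 library was assumed to vary as the other groups do. The sum of 6 neuron markers moved the same way at day 4, with 69.4 and 101 TPM in libraries S13 and S23, against 169 and 183 TPM in wild type. Of the 5 that were tested, 4 had a negative log2 fold change and none was called. The sixth, NEUROD1, was listed at 0 in S23, WT1 and WT2. At day 8 the neuron sum was 167 and 119 TPM in libraries S13 and S23, against 242 and 254 TPM in wild type. Of the 5 tested, 3 were then negative and 2 positive, and 1 was called lower (background 2.79% in either direction). The 8 neural progenitor markers summed to 1009 and 1454 TPM in libraries S13 and S23, against 1225 and 1295 TPM, with 4 of 8 log2 fold changes positive and a median of 0.06. Of that list LHX2 and SIX3 were called lower in SOX21-/- libraries (log2 fold changes -1.78 and -1.78, adjusted p = 0.01 and 0.0177; background 0.536%), and SOX1 had 4.09 and 17.05 TPM in libraries S13 and S23, against 1.86 and 1.97 TPM in wild type (1.72, adjusted p = 0.142). The part of these markers in the result was not tested.

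**Figure D3:**
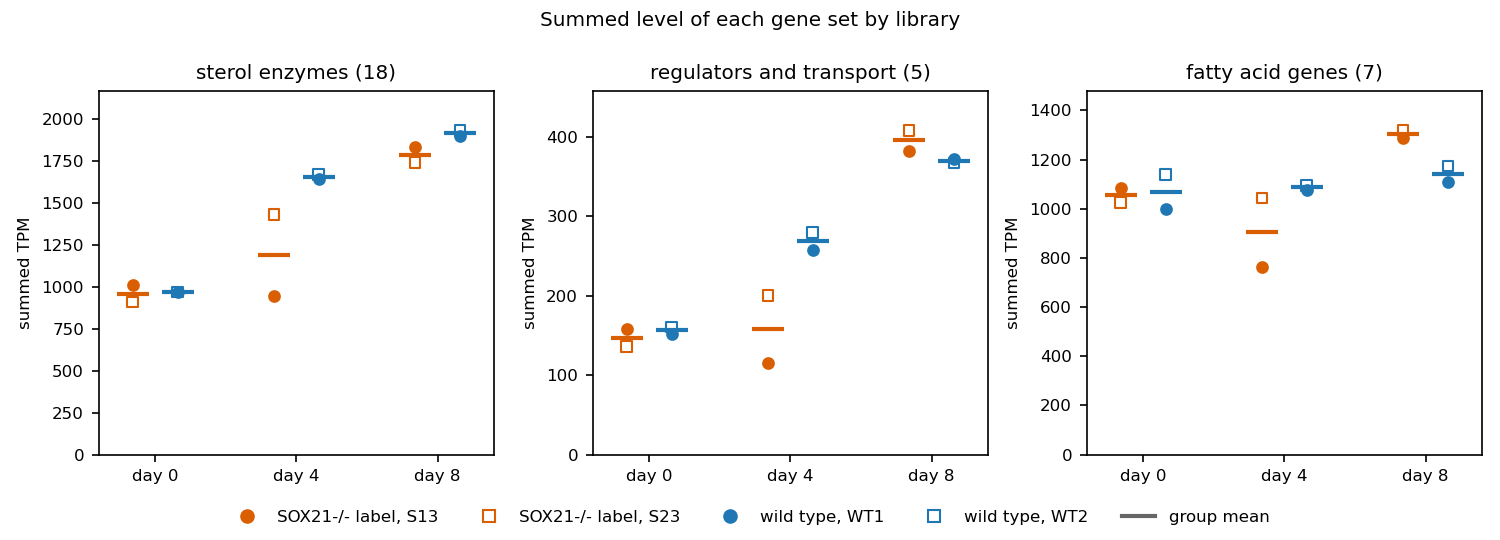
Summed TPM of the 18 sterol enzymes, the 5 regulators and the 7 fatty acid genes in each library at days 0, 4 and 8, with SOX21-/- libraries left of wild-type ones, and group means as bars. The sterol sum at day 4 is 945 TPM in S13 and 1430 TPM in S23, against 1639 and 1668 TPM in wild type, and at day 8 the 4 libraries lie between 1740 and 1930 TPM.

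At day 8 none of the 30 genes was called between genotypes (background 2.79% of all genes; 3 of 30 had an unadjusted p under 0.05, MVK, PMVK and SCD, against 16.3%). SCD had 425 and 458 TPM in libraries S13 and S23, against 242 and 262 TPM in libraries WT1 and WT2. The groups did not overlap, and the log2 fold change was 0.81 (SE 0.22, adjusted p = 0.102). Over the 12 fits without 1 library the SCD log2 fold change ran from 0.75 to 0.86. The spread in its test was pooled over all groups, so the unlike SCD levels of S13 and S23 at day 4 entered it. MVK had 20.1 and 20.9 TPM in libraries S13 and S23, against 31.0 and 33.5 TPM in wild type, with a log2 fold change of -0.63 (SE 0.18, adjusted p = 0.127). MVD had 74.5 and 71.4 TPM in libraries S13 and S23, against 84.7 and 91.4 TPM in wild type, with a log2 fold change of -0.27 (SE 0.12, adjusted p = 0.333). The groups of MVK and of MVD did not overlap. Among the regulators, SREBF2 had 186 and 211 TPM in SOX21-/- libraries, against 183 and 168 TPM, and INSIG1 had 57.0 and 50.1 TPM, against 52.2 and 52.8 TPM. Both SOX21-/- libraries lay below both wild-type ones in 12 of 30 genes (21.7% of all genes) and above in 5 (21.4%), and with median-of-ratios scaling below in 9 (21.7%) and above in 6 (22%).

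**Figure D4:**
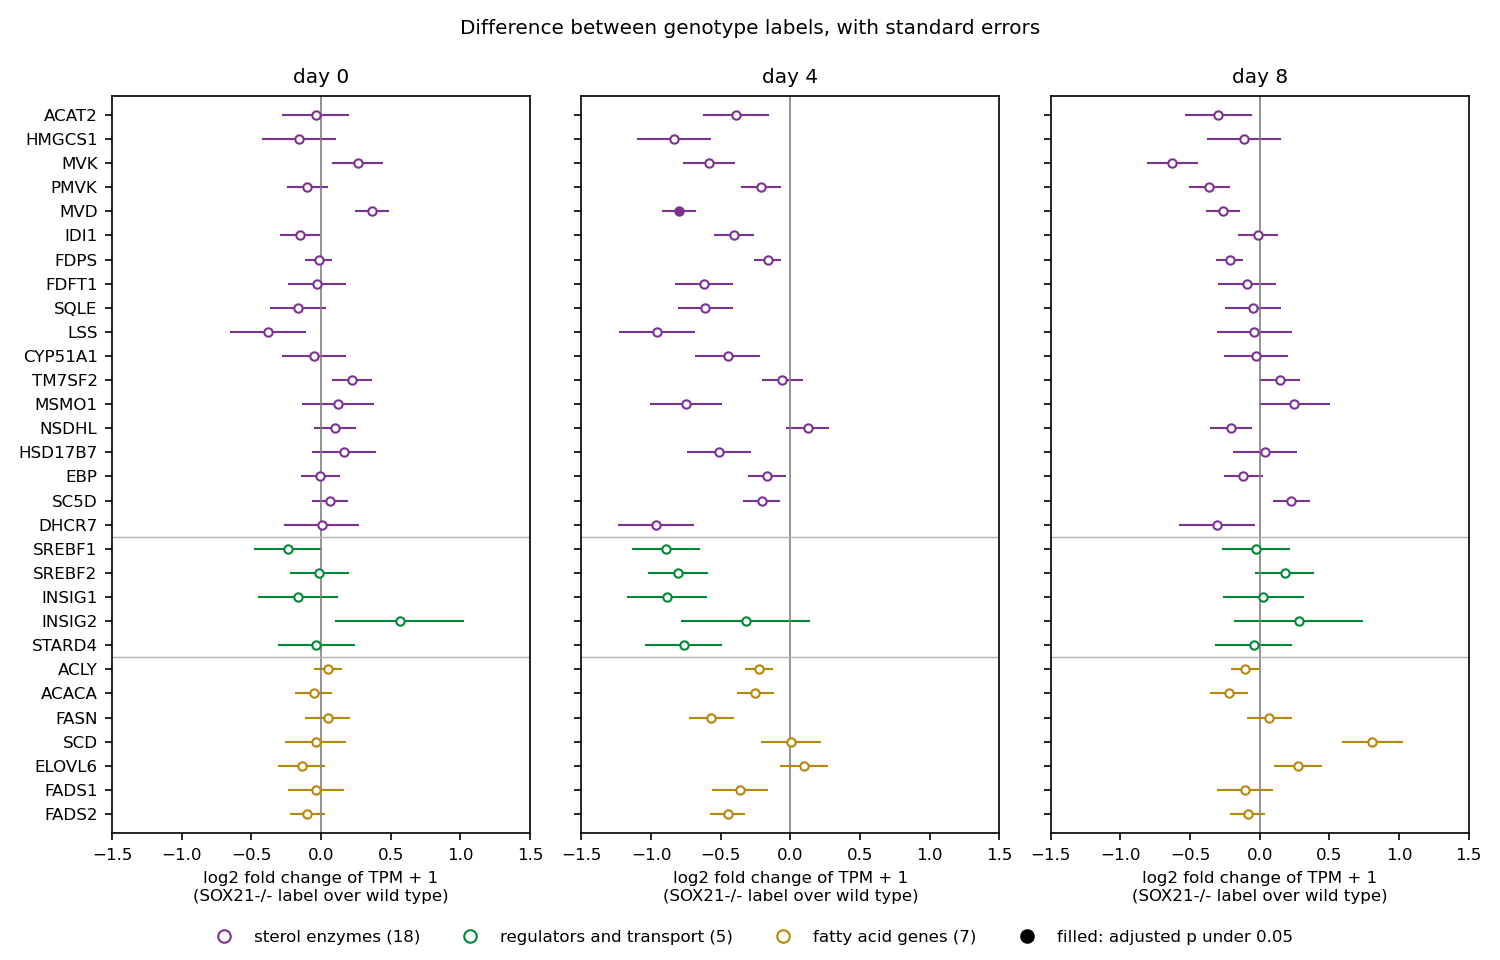
Log2 fold change of TPM + 1, SOX21-/- label over wild type, with standard errors, for each gene at days 0, 4 and 8, coloured by role. The filled point is MVD at day 4 (-0.80), the only value drawn with an adjusted p under 0.05; SCD at day 8 lies at 0.81.

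From day 0 to day 4, 4 enzymes of the first part of the sterol pathway (HMGCS1, MVK, PMVK and IDI1) rose in wild-type cells under each of 3 scalings, while SC5D, FASN and ELOVL6 fell under each. In wild type 20 of 30 genes were called higher and 3 lower at day 4 than at day 0 (background 54.3% and 11.4% of all genes), with a median of 0.90 against 0.91 over all genes. With median-of-ratios scaling the split was 4 higher and 15 lower, and with protein-coding genes rescaled to their own sum it was 9 higher and 8 lower. In SOX21-/- libraries 12 genes were called higher and 7 lower (48.1% and 12.5% of all genes). These counts were 2 and 18 under median-of-ratios scaling and 6 and 12 under protein-coding scaling. The shares of all genes called under these 2 scalings, or under all 3, are not given here, so those counts have no background. The sign itself turned with the scaling for 13 of 30 genes in SOX21-/- libraries and for 18 of 30 in wild type. Those called in 1 direction under all 3 scalings were PMVK and IDI1 (higher) and MVD, FDFT1, SC5D, DHCR7, SREBF1, FASN and ELOVL6 (lower) in SOX21-/- libraries, and HMGCS1, MVK, PMVK and IDI1 (higher) and SC5D, FASN and ELOVL6 (lower) in wild type.

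The 5 largest wild-type steps from day 0 to day 4 were among these genes. HMGCS1 had 257 and 271 TPM in libraries WT1 and WT2 at day 4, against 54.4 and 56.9 TPM at day 0, a log2 fold change of 2.22 (SE 0.26, adjusted p = 9.41e-05, limma), and 0.80 with median-of-ratios scaling. PMVK had 26.7 and 31.0 TPM at day 4, against 6.01 and 5.59 TPM at day 0 (2.13, SE 0.15, adjusted p = 3.78e-06). MVK, which phosphorylates mevalonate, had 22.96 and 29.06 TPM at day 4, against 4.95 and 5.37 TPM at day 0 (2.12, SE 0.18, adjusted p = 1.4e-05). Both kinases, which act one after the other, thus rose by a like amount. IDI1, the isomerase that makes dimethylallyl diphosphate, had 90.0 and 84.9 TPM at day 4, against 23.2 and 22.8 TPM at day 0 (1.88, SE 0.14, adjusted p = 6.72e-06). In each of these the day 4 libraries lay above the day 0 libraries. ELOVL6 went the other way, with 37.9 and 35.2 TPM at day 4, against 142 and 142 TPM at day 0 (-1.93, SE 0.17, adjusted p = 1.57e-05). In SOX21-/- libraries the same 5 steps were 1.54, 2.02, 1.28, 1.63 and -1.70 for HMGCS1, PMVK, MVK, IDI1 and ELOVL6, and 0.32, 0.90, 0.15, 0.43 and -2.92 with median-of-ratios scaling, under which HMGCS1 and MVK were not called.

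The genotype difference in this step was called for MVD. In SOX21-/- libraries MVD had 40.3 and 42.7 TPM at day 4, against 67.35 and 71.2 TPM at day 0, a log2 fold change of -0.72 (SE 0.12, adjusted p = 0.000857). In wild type MVD had 64.8 and 81.9 TPM at day 4, against 49.6 and 57.8 TPM at day 0, a log2 fold change of 0.44 (SE 0.12, adjusted p = 0.0121), whose sign turned with median-of-ratios (-0.98) and with protein-coding scaling (-0.19). The interaction, SOX21-/- step minus wild-type step, was -1.16 (SE 0.17, adjusted p = 0.0401), 1 call among the 30 genes (background 0.408%). The call was lost with median-of-ratios scaling (-0.96, adjusted p = 0.0745), without the variance trend (adjusted p = 0.0837), with the line label as a block (adjusted p = 0.0592) and in 10 of the 12 fits without 1 library (adjusted p 0.0318 to 0.119 over the 12). It held with protein-coding scaling (-1.16, adjusted p = 0.0477). Both its day 0 values (higher in SOX21-/- libraries) and its day 4 values (lower) entered it.

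**Figure D5:**
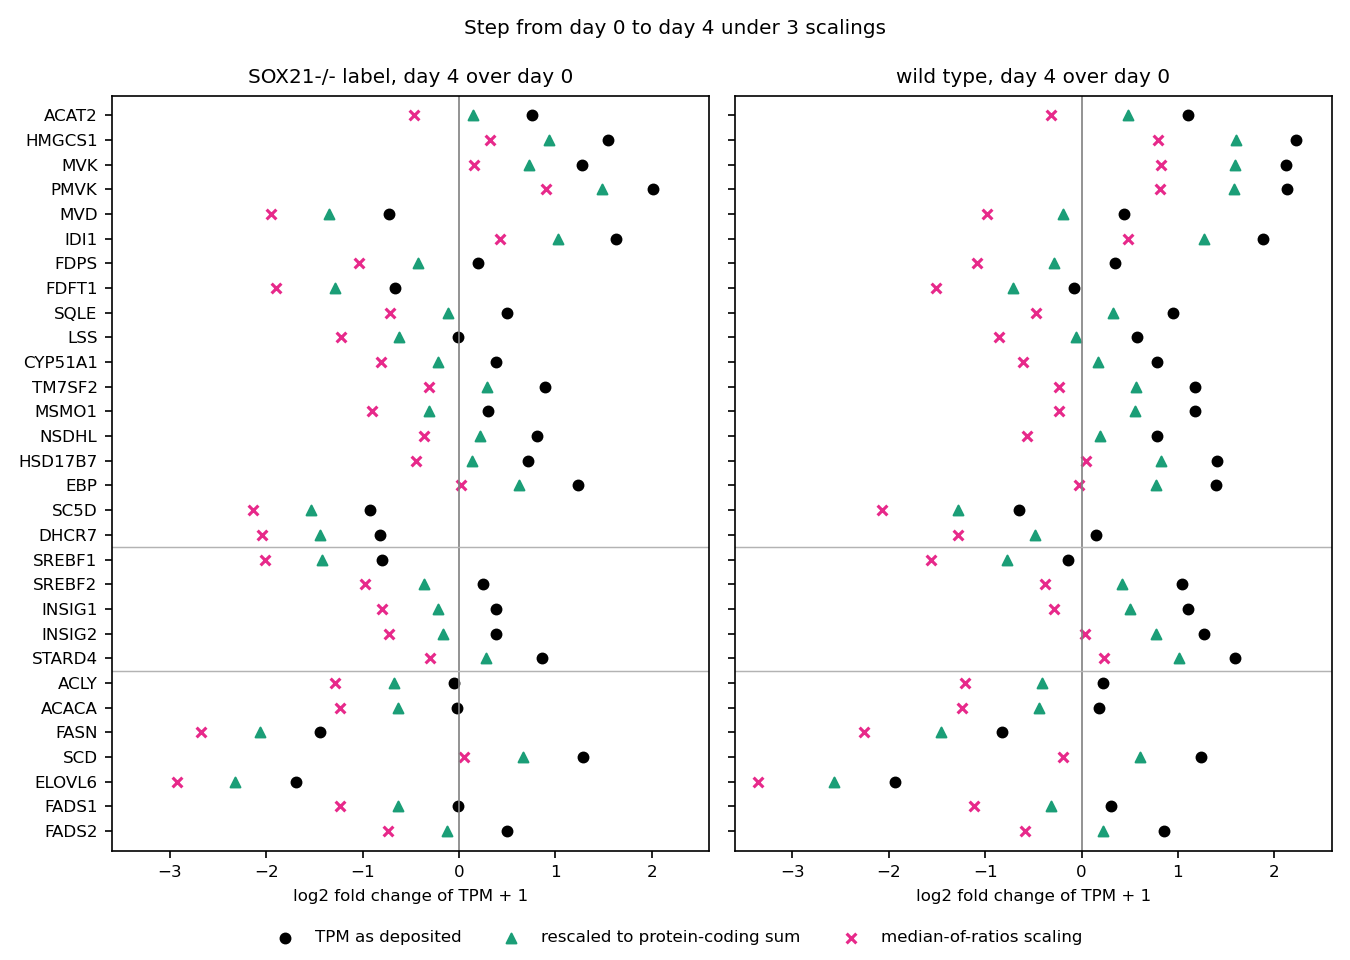
Step from day 0 to day 4 for each gene, as the log2 fold change of TPM + 1, in SOX21-/- libraries (left) and wild type (right), from the TPM as deposited (circles), rescaled to the protein-coding sum (triangles) and with median-of-ratios scaling (crosses). HMGCS1 in wild type lies at 2.22, 1.60 and 0.80 under the 3, to the right of 0 in each, and ELOVL6 lies to the left of 0 in each.

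From day 4 to day 8 the SREBP genes and part of the sterol enzymes rose in SOX21-/- libraries. Higher calls numbered 14 of 30 in SOX21-/- libraries (19.0% of all genes) with 0 lower (7.15%), and 2 of 30 in wild type (7.62%) with 0 lower (4.99%). The 14 were 7 sterol enzymes, 4 regulators and 3 fatty acid genes, and 10 of them were called under all 3 scalings (MVD, IDI1, FDFT1, MSMO1, SREBF1, SREBF2, INSIG1, STARD4, ELOVL6 and FADS2). The median step was 0.64 in SOX21-/- libraries, against 0.20 over all genes, and 0.23 in wild type, against 0.03 over all genes. The SOX21-/- medians of sterol enzymes, regulators and fatty acid genes were 0.44, 1.33 and 0.62. They were 0.16, 0.93 and 0.28 without S13 at day 4 and 0.84, 1.78 and 0.73 without S23 at day 4. The interaction of this step called none of the 30 genes (background 1.11%), and 8 of 30 had an unadjusted p under 0.05, against 16.4% of all genes. The count of steps thus does not show that the genotypes differed. The calls of the wild-type step, FDPS, which makes farnesyl diphosphate (0.36, SE 0.10, adjusted p = 0.0463, and 0.0805 with median-of-ratios scaling), and ELOVL6, were also called in the SOX21-/- libraries. The wild-type call of FDPS held in 2 of the 12 fits without 1 library, those without S13 and without S23 at day 4.

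Among the 5 largest wild-type steps from day 4 to day 8 only ELOVL6 passed the test. ELOVL6 had 71.3 and 47.7 TPM in libraries WT1 and WT2 at day 8, against 37.9 and 35.2 TPM at day 4 (0.66, SE 0.17, adjusted p = 0.0406). This call was lost in 9 of the 12 fits without 1 library (0.38 to 0.95, adjusted p 0.0126 to 0.172), with median-of-ratios scaling (adjusted p = 0.0545) and with only days 4 and 8 (adjusted p = 0.122). STARD4 had 56.6 and 63.9 TPM at day 8, against 34.8 and 36.7 TPM at day 4 (0.73, SE 0.28, adjusted p = 0.124). INSIG2 had 18.9 and 17.7 TPM at day 8, against 12.8 and 11.3 TPM at day 4 (0.57, SE 0.46, adjusted p = 0.487). In these genes the day 8 libraries lay above the day 4 libraries. FDFT1 had 282 and 286 TPM at day 8, against 190 and 203 TPM at day 4 (0.53, SE 0.21, adjusted p = 0.142). SREBF2 had 183 and 168 TPM at day 8, against 117 and 133 TPM at day 4 (0.49, SE 0.21, adjusted p = 0.179). In SOX21-/- libraries the steps were larger for SREBF2, with 186 and 211 TPM at day 8, against 53.9 and 93.2 TPM at day 4 (1.47, SE 0.21, adjusted p = 0.00221), and for STARD4, with 58.8 and 57.9 TPM at day 8, against 14.0 and 30.2 TPM at day 4 (1.46, SE 0.28, adjusted p = 0.00689), while the interactions were 0.98 (adjusted p = 0.159) and 0.72 (adjusted p = 0.405).

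Of the 9 comparisons, the medians of the sterol and fatty acid groups lay farthest apart in wild type at day 4 against day 0, where the sterol median was the higher. In wild type the median from day 0 to day 4 was 1.03 for the 18 sterol enzymes and 0.23 for the 7 fatty acid genes, and in SOX21-/- libraries it was 0.61 and -0.02. Without S13 at day 4 the SOX21-/- medians were 0.85 and 0.15, and without S23 at day 4 they were 0.23 and -0.18. With median-of-ratios scaling the wild-type medians were -0.39 and -1.21, and with protein-coding scaling 0.40 and -0.41, so that the gap between the groups kept its order. The sterol sum in SOX21-/- libraries was 1008 and 909 TPM at day 0, 945 and 1430 TPM at day 4 and 1828 and 1740 TPM at day 8, against 965 and 968, 1639 and 1668, and 1899 and 1930 TPM in wild type. The fatty acid sum was 1084 and 1025, 765 and 1044, and 1288 and 1319 TPM in SOX21-/- libraries, against 997 and 1140, 1078 and 1095, and 1110 and 1174 TPM in wild type. The fatty acid group was mixed within itself: FASN and ELOVL6 fell while SCD, as deposited, rose to 244 and 252 TPM in wild type at day 4, against 98.5 and 111 TPM at day 0 (log2 fold change 1.24, but -0.19 with median-of-ratios scaling). These medians are descriptions of groups of unequal size, and their difference was not tested.

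Genes of neighbouring pathways passed an unadjusted threshold at shares near those of all genes, and none was called between genotypes. Of 57 tested genes in 5 other lists, covering SREBP processing, isoprenoid branches, sterol efflux and storage, other fatty acid synthesis and fatty acid oxidation, 0 were called at day 0, 0 at day 4 and 0 at day 8 with limma, against 0.384%, 0.775% and 2.79% of all genes, while 4, 12 and 10 had an unadjusted p under 0.05, against 5.88%, 16.9% and 16.3% of all genes. The median log2 fold change at day 4 was -0.01 for the 8 genes of SREBP processing, 0.08 for the 10 of the isoprenoid branches, -0.11 for the 11 of sterol efflux and storage, -0.16 for the 16 of other fatty acid synthesis and 0.00 for the 12 of fatty acid oxidation that were tested, against -0.12 over all genes. Single genes ranged from -1.01 to 0.33 in sterol efflux and storage and from -0.844 to 0.545 in other fatty acid synthesis. The range of the 30 members was -0.97 to 0.12, so single low values were not particular to them. Their median was -0.45 and 15 of 30 had an unadjusted p under 0.05 (limma), against medians of -0.16 to 0.08 and 12 of 57 in the 5 other lists. Exons of 15 of the 30 members overlap another gene. For 14 of them this is a gene on the other strand and for 4 one on the same strand, some having both. The 4 are CYP51A1, TM7SF2, FADS1 and FADS2. Whether counting used strand is not stated. MVK (which overlaps MMAB), ACAT2 (which overlaps TCP1 and SOD2) and the overlapping pair of FADS1 and FADS2 in particular have uncertain levels. Of the annotated pseudogenes named after a member, those of HSD17B7 took the largest share, at most 4.86% of their summed level with HSD17B7 at day 0. Copies under other names were not counted.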

How the data were processed

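The deposited values were gene-level TPM; the submitters' processing notes name CASAVA 1.7, Salmon 0.8.2 and the build hg38. The annotation release, the read depth and any use of strand are not given in the sources used here, and the labels name several sequencers without assigning them to libraries. TPM sums to a fixed total in each library, so the depth and precision of a value are unknown.

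The 24248 genes that reached 1 TPM in 2 or more of the 12 libraries were fitted on log2(TPM + 1) with limma 3.58.1 in R 4.3.3, with 1 mean for each of 6 groups, moderated variances with a trend (6 residual and 2.29 prior degrees of freedom), two-sided tests and Benjamini-Hochberg adjustment at 0.05 within each of 9 comparisons. A fold change on this scale understates that of low genes. Genes named in full were those called between genotypes or in an interaction and the 5 largest wild-type steps, and others as stated in the text. The members and lists were chosen with earlier results of these data known. The model was tested on simulated data. Positions and overlaps came from GENCODE v29 and promoters from RefSeq. The line labels recur at each day, but the main fit did not pair the libraries by them. Deviations from the group means correlated at -0.006 to 0.071 between days over all genes tested. That does not show whether libraries of 1 label were paired.

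Alternatives were another pseudocount (0.1), a filter at 5 TPM or none, median-of-ratios scaling, protein-coding genes only, no variance trend, the line label as a block, only days 4 and 8, and each library left out in turn. Mitochondrially encoded genes were left out of the protein-coding set.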

Additional observations from a re-analysis of the deposited data

Results flagged for a closer look

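The MVD response from day 0 to day 4 differed between genotypes by the interaction term: the SOX21-/- step minus the wild-type step was -1.16 on the log2 scale (adjusted p = 0.0401, limma). The call was lost in 10 of 12 fits without 1 library (adjusted p 0.0318 to 0.119 over the 12), with median-of-ratios scaling (0.0745), without the variance trend (0.0837) and with the line label as a block (0.0592). The SOX21-/- libraries had 40.3 and 42.7 TPM at day 4, against 67.35 and 71.2 TPM at day 0, and the wild-type libraries had 64.8 and 81.9 TPM at day 4, against 49.6 and 57.8 TPM at day 0. Groups of 2 libraries are too small for a test of single outlying libraries.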

How the results depend on the processing

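The number of the 30 genes called at day 4 between genotypes, 1 as reported, was 0 with median-of-ratios scaling, 0 without the variance trend and 0 with only days 4 and 8. Wild type at day 8 against day 4, with 2 calls, gave 1 with a pseudocount of 0.1, 0 without a filter, 0 with median-of-ratios scaling, 0 without the trend and 0 with only days 4 and 8. The interaction from day 0 to day 4, with 1 call, gave 0 with median-of-ratios scaling and 0 without the trend. With the line label as a replicate block, wild type at day 8 against day 4 gave 1 call. The interaction from day 0 to day 4 then gave 0 (MVD adjusted p = 0.0592, limma). Only the label is known to link the libraries across days. The block moved no other count by over 1.5 times. Leaving out each library in turn, the counts ran from 0 to 0 at day 0, 0 to 10 at day 4 and 0 to 1 at day 8 between genotypes. They ran from 13 to 23 and 7 to 19 for the SOX21-/- steps to day 4 and to day 8, and from 20 to 25 and 0 to 6 for the wild-type steps. For the interactions they ran from 0 to 5 and 0 to 8. The high ends of the day 4 comparison and of both interactions came without S23 at day 4. The cause of these changes was not tested, and the share of all genes called in each of these fits is not given here. Depth is unknown, and 2 libraries a group limit what can be called.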
